A study of Mus musculus with 54 samples.

Results

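Purinergic and adenosine signalling genes were examined in brain macrophages of mice, at rest, after systemic lipopolysaccharide (LPS, a bacterial endotoxin) and after depletion and repopulation of the cells. The set held 10 of the 33280 gene symbols in the deposited count tables, of which 26332 had a read in at least 1 library, and each member was found by its exact symbol. It comprised the ATP-gated ion channels P2rx4 and P2rx7, the G-protein-coupled nucleotide receptors P2ry6 and P2ry14, the surface enzymes Entpd1 (CD39) and Nt5e (CD73), and the adenosine receptors Adora1, Adora2a, Adora2b and Adora3.

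ATP and other nucleotides that leave damaged or active cells act on P2X channels and P2Y receptors of neighbouring cells. Entpd1 removes phosphates from extracellular ATP and ADP to give AMP, and Nt5e converts AMP to adenosine, so that both enzymes together turn a signal through P2 receptors into a signal through adenosine receptors. Adora1 and Adora3 couple to G proteins that lower cyclic AMP, whereas Adora2a and Adora2b couple to those that raise it. Microglia are known for sensing nucleotides with their processes, and P2rx7 is known as an ATP-gated trigger of the inflammasome in macrophages.

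The 54 RNA-seq libraries fell into 18 groups of 3, each library from cells sorted from 1 mouse. The cells were microglia (MG) or CD206+ subdural macrophages of the CNS borders (sdCAMs), which sit in the leptomeninges and around vessels, and all came from brains without choroid plexus. Wild-type (WT) mice and mice labelled Ccr2 KO (KO in the text, Ccr2-/- in the plots), which lack the receptor that monocytes use to leave the bone marrow, were each left untreated and given PBS, given vehicle (CTL) and LPS, or given the CSF1R inhibitor BLZ945, which depletes brain macrophages, and LPS. In these mice the comparison of LPS with PBS therefore also compared vehicle-treated with untreated mice. Reporter mice (Ccr2CreERT2/CreERT2:R26tdT/tdT) all received BLZ945 and then 2 mg tamoxifen at each injection, and were given PBS or LPS. Their sdCAMs were sorted into tdT+ cells, which had used the Ccr2 promoter while tamoxifen acted or descend from such cells, and tdT- cells, which had not recombined the reporter. Injections of LPS were made 8 weeks after BLZ945 or vehicle and cells were taken 12 h after the injection. Both sexes were used, and no age is given in the labels.

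Total counts per library ranged from 7497764 to 11330781 in MG and from 1705930 to 10727796 in sdCAMs, and levels are given as counts per 1000000 after scaling by TMM factors (CPM), with the mice of a group always in the same order. The scaling multiplied plain CPM by 2.02 to 2.91 in WT sdCAMs after CTL and LPS and by 1.43 to 2.13 in tdT- sdCAMs after LPS. In WT sdCAMs after BLZ945 and LPS the factor was 2.71 for mouse 12 against 0.826 and 0.783 for mice 8 and 11, so that mouse 12 stood apart from its group. In all other libraries the factor lay between 0.732 and 1.19. Ccr2 reached 42.96, 16.83 and 34.21 plain CPM in untreated WT sdCAMs and 3.02, 2.46 and 5.59 plain CPM in those labelled Ccr2 KO. It was not ordered by genotype in WT sdCAMs after CTL and LPS (0.26, 0 and 0.15 plain CPM). In untreated MG the genotypes overlapped, at 3.87, 7.64 and 10.56 plain CPM in WT and 5.96, 5.10 and 7.10 plain CPM in KO mice. Libraries of 2 of 24 mice, reporter mice 1 and 7 after LPS, did not match each other in the sex-linked genes Xist and Ddx3y. In mouse 1 the tdT- library held Xist (323.2 plain CPM), and MG and tdT+ held Ddx3y (58.42 and 166). In mouse 7 the tdT+ library held Ddx3y (127.7), and MG and tdT- held Xist (974.3 and 322.9). The columns tdT- of mouse 1 and tdT+ of mouse 7 also carry index numbers that conflict with the labels. With these 2 columns exchanged, the libraries of each mouse match in both genes. The main fits kept the labels. Results that rest on these 2 columns are given with them exchanged or left out where this changed a call. In KO mice given LPS, the sample titles name the other cell type than the characteristics and library names. The characteristics were used. The summed level of 5 microglial markers (Tmem119, P2ry12, Sall1, Siglech and Sparc) was 82.3% of the sum in same-mouse MG in tdT+ sdCAMs of mouse 5 after LPS, and 3.14 to 35.8% in all other sdCAM libraries. The 6 sdCAM markers (Mrc1, Pf4, Lyve1, Ms4a7, Cd163 and Cbr2) summed to 0.2494 to 22.56 CPM in MG and to at least 515.5 CPM in sdCAMs.

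LPS lowered Entpd1 in 6 of the 7 sorted populations, by 3.47- to 11.6-fold. It raised Adora2b in 4 of 6 populations tested and Adora2a in 3 of 6. In MG, and for Adora2b also in WT sdCAMs, these genes passed the filter on low counts only through libraries after LPS. Their means after LPS were 71.8 and 39.2 CPM in KO sdCAMs, but 1.40 and 2.54 CPM in WT MG and 1.69 and 1.87 CPM in KO MG. The Adora2b call in WT sdCAMs was lost when any 1 of the libraries compared was left out. Too few reads for a test were found for Adora2b in reporter MG and for Adora2a in WT sdCAMs. Adora3 was 2.58- to 51.2-fold lower in sdCAMs than in MG at rest and rose after LPS in 3 of the 4 sdCAM populations. P2rx4 was higher in sdCAMs than in MG in 3 of 4 comparisons. In a given direction, a change was called where edgeR's adjusted p, over all genes tested, was under 0.05 and the log2 fold change exceeded 1 in size. In bulk RNA of sorted cells, fewer cells of a kind and less RNA per cell cannot be told apart.

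**Figure D1:**
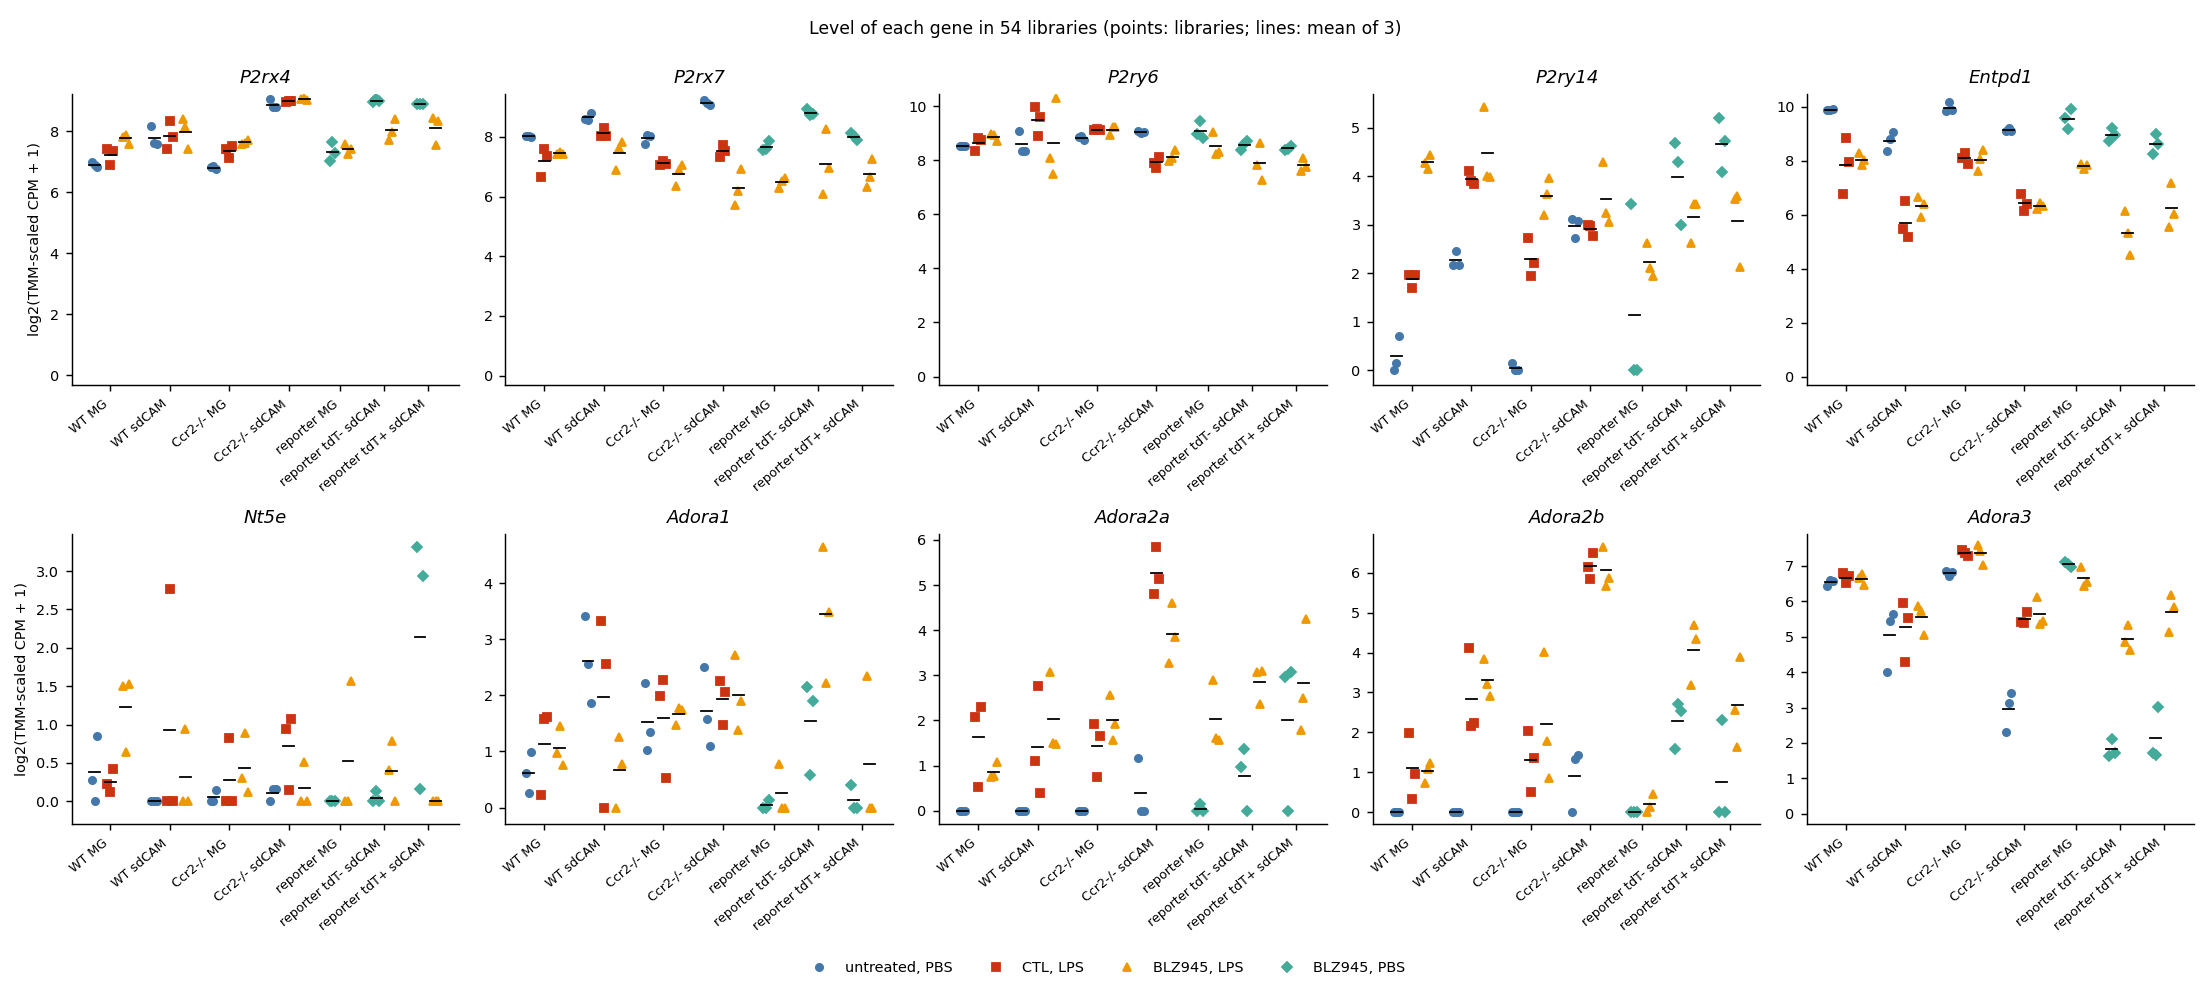
Level of each member, as log2 of TMM-scaled CPM plus 1, in the 54 libraries by sorted population and treatment. Points are libraries and lines are means of 3 on this scale. Entpd1 stood between 579.5 and 1161 CPM in the 9 MG libraries without LPS, and Adora2a and Adora2b were at 0 in untreated WT and Ccr2 KO MG.

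Counts of called members stood beside the following shares of all genes tested. After LPS, 3 of 9 tested members were higher and 1 lower in WT MG, where 9.08% of all genes were called higher and 7.65% lower. In MG labelled Ccr2 KO the counts were also 3 and 1 of 9, beside 10.5% and 8.89%. In WT sdCAMs 1 of 7 was higher and 1 lower, beside 3.7% and 2.62%, and in sdCAMs labelled Ccr2 KO 3 of 9 were higher and 3 lower, beside 10.9% and 10.6%. With 7 to 9 members tested, each share of called members rests on very few genes. The higher calls in MG were P2ry14, Adora2a and Adora2b, and that in WT sdCAMs was Adora2b. There these genes passed the filter on low counts only through libraries after LPS. Adora2a and Adora2b had too few reads there for a test in the compared groups alone.

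In the reporter mice 1 of 9 members was higher and 1 lower in tdT+ sdCAMs after LPS, beside 7.54% and 5.82% of all genes, and 1 was higher and 2 lower in tdT- sdCAMs, beside 14.5% and 12%. None of 7 tested was called in reporter MG by edgeR, where 1.08% of all genes were called, although 3 had an unadjusted p under 0.05 and DESeq2 called 3. The estimated coefficient of variation between replicates was 0.81 in that fit, against 0.257 in WT MG and 0.264 in KO MG. Reporter MG of PBS mouse 175 held P2ry12 at 789.5 CPM, against 7859 and 9829 CPM in the others, and fewer genes detected (10815 against 12333 and 12186). Reporter MG of LPS mouse 1 held Tmem119 at 3492 CPM, against 836.2 and 871.8 CPM. Nt5e had too few reads to be tested in any LPS comparison. The median log2 fold change after LPS was 0.35 over the members tested in WT MG, 0.57 in KO MG, 0.39 in WT sdCAMs and 0.10 in KO sdCAMs, and -0.43, -0.61 and -0.57 in reporter MG, tdT+ and tdT- sdCAMs. Over all genes it lay between -0.08 and 0.04.

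**Figure D2:**
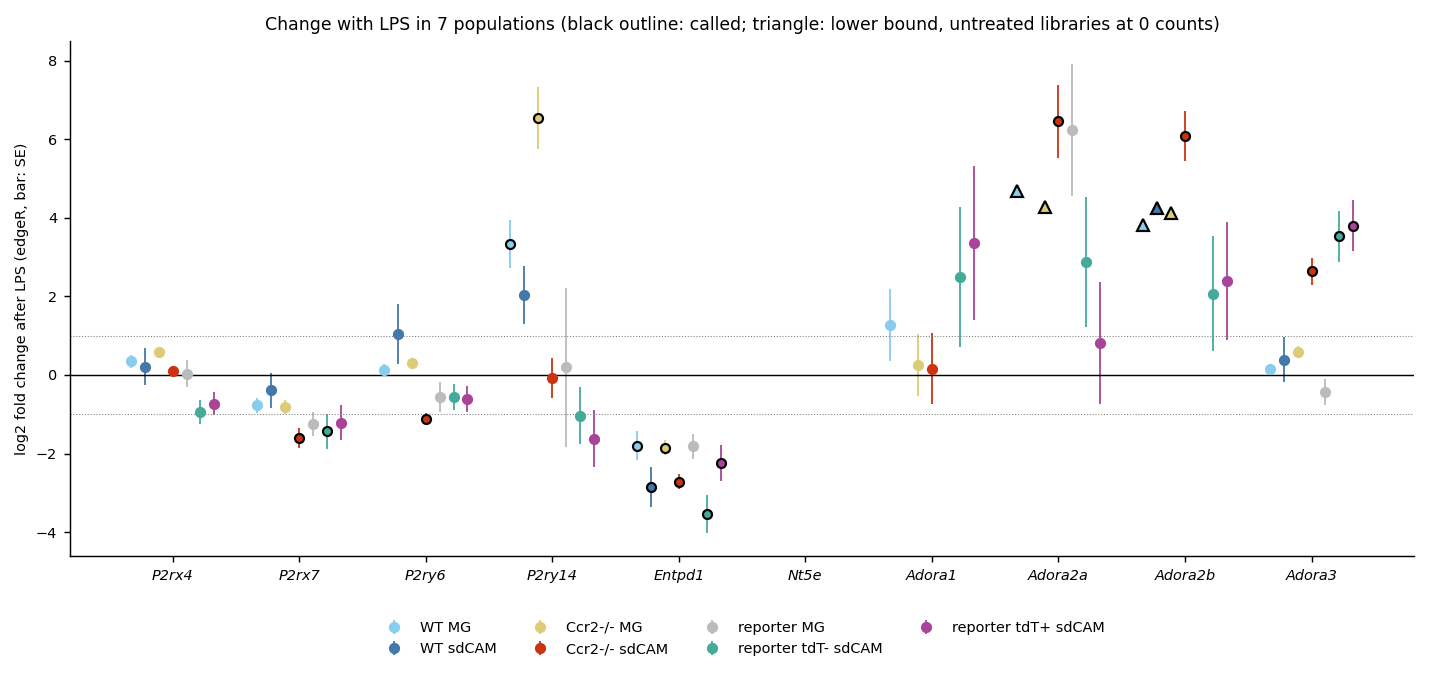
Log2 fold change after LPS (LPS minus PBS, edgeR) of each member in the 7 sorted populations. Error bars are standard errors derived from the F statistic of the test. Black outlines mark calls, dotted lines mark a log2 fold change of 1 in either direction and triangles are lower bounds against groups without a read. Fitted points of P2ry14 in KO MG and of Adora2a in reporter MG rest on 1 read without LPS and are not bounds. Entpd1 and P2rx7 lie below 0 in all 7 populations, and Nt5e was not tested.

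The ATP-gated channels were expressed in every group. P2rx4, a channel that opens at low ATP, had levels of 112, 116 and 106 CPM in untreated MG labelled Ccr2 KO. In sdCAMs of the same mice it was at 526, 446 and 438 CPM. The groups did not overlap and differed 4.20-fold (log2 fold change 2.07, SE 0.13 and adjusted p = 5.51e-10 by edgeR). In reporter mice given PBS, P2rx4 was at 129, 202 and 154 CPM in MG, 477, 469.9 and 472 CPM in tdT+ sdCAMs and 494, 526 and 506 CPM in tdT- sdCAMs. Every sdCAM library lay above every MG library, by 2.88-fold in tdT+ (log2 fold change 1.53, SE 0.32 and adjusted p = 0.00479 by edgeR) and 3.11-fold in tdT- cells (adjusted p = 0.00308 by edgeR). In untreated WT mice the levels were 126, 117 and 113 CPM in MG and 284, 197 and 192 CPM in sdCAMs, without overlap, and the difference missed the threshold (log2 fold change 0.94, SE 0.33 and adjusted p = 0.0548 by edgeR).

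After LPS, P2rx4 changed in none of the 7 populations by the call used. It was at 171, 138 and 181 CPM in KO MG, above every untreated library but under the fold limit (log2 fold change 0.57, SE 0.14 and adjusted p = 0.00542 by edgeR). In tdT- sdCAMs it was at 211, 253 and 339 CPM, below every PBS library and also under the fold limit (log2 fold change -0.93, SE 0.30 and adjusted p = 0.0313 by edgeR). In KO sdCAMs, where it was at 493, 513 and 510.3 CPM, the groups overlapped. The signs of the P2rx4 differences after LPS in WT and KO sdCAMs, neither of them called, turned when the counts were not TMM-scaled.

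P2rx7, the channel that opens at high ATP, was highest in untreated sdCAMs labelled Ccr2 KO, at 607, 557 and 532 CPM, against 214, 266 and 259 CPM in MG of the same mice (log2 fold change 1.19, SE 0.23 and adjusted p = 0.000776 by edgeR). No library of either group reached the other. After LPS it was at 160.1, 213 and 183 CPM in the KO sdCAMs, all below the untreated libraries, and fell 3.05-fold (log2 fold change -1.61, SE 0.25 and adjusted p = 0.000431 by edgeR). In tdT- sdCAMs it fell from 484, 422 and 434 to 66.5, 309 and 123 CPM (log2 fold change -1.43, SE 0.44 and adjusted p = 0.0257 by edgeR). The tdT- libraries after LPS spread widely, and this call was lost in 6 of 13 alternative analyses, among them the exchange of the 2 columns with conflicting index numbers (adjusted p = 0.0673).

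The P2rx7 log2 fold change after LPS was below 0 in 7 of 7 populations, from -1.61 to -0.39. WT MG went from 262, 262 and 255 to 99.7, 191 and 161 CPM (log2 fold change -0.78, SE 0.20 and adjusted p = 0.0118 by edgeR) and KO MG from 214, 266 and 259 to 132, 145 and 136 CPM (log2 fold change -0.82, SE 0.18 and adjusted p = 0.00235 by edgeR). In both the groups did not overlap and the difference passed the p threshold but not the fold limit. In tdT+ sdCAMs the levels were 277, 257 and 235 CPM with PBS and 78.2, 100.3 and 152 CPM with LPS, again without overlap, and the adjusted p was 0.0809 with edgeR. That difference was called in 5 of 13 alternatives, and with the 2 columns exchanged its adjusted p was 0.0248. The decline of P2rx7 in KO sdCAMs did not differ detectably from that in KO MG (difference of log2 fold changes -0.75, SE 0.32, edgeR adjusted p = 0.184).

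Among the P2Y receptors, P2ry6 responds to UDP and has been tied to microglial phagocytosis. It was at 366, 367 and 367 CPM in untreated WT MG and 533, 515 and 519.6 CPM in untreated KO sdCAMs, and no comparison of sdCAMs with MG called it. After LPS it fell in KO sdCAMs to 238, 211 and 275 CPM, 2.17-fold (log2 fold change -1.12, SE 0.15 and adjusted p = 0.000152 by edgeR). All 3 libraries lay below the untreated ones. In KO MG, P2ry6 was at 459, 476 and 433 CPM untreated and 552, 564 and 553 CPM after LPS, higher without overlap but not called (log2 fold change 0.31, SE 0.12 and adjusted p = 0.067 by edgeR). The LPS responses of KO sdCAMs and KO MG differed in a test of the difference itself (log2 -1.39, SE 0.19, edgeR adjusted p = 6.92e-05). WT sdCAMs after LPS gave 998, 476 and 763 CPM against 545, 321 and 324 CPM untreated, so the groups overlapped and the P2ry6 difference of 1.04 (log2) was not called and was below 0 without TMM scaling.

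P2ry14, a receptor for UDP-sugars, was close to absent from untreated MG. Untreated WT MG held 0, 0.102 and 0.629 CPM, which amounts to 8 reads over the group, and untreated KO MG 0.0994, 0 and 0 CPM, which is 1 read. Untreated sdCAMs held 3.50, 4.46 and 3.50 CPM in WT and 7.64, 5.58 and 7.47 CPM in KO mice. In both genotypes the sdCAM libraries stood above all MG libraries, 14.3-fold in WT (log2 fold change 3.83, SE 0.82 and adjusted p = 0.00451 by edgeR), and in KO mice at a ratio of 214 whose 95% counting interval ran from 37.9 to 8480 (adjusted p = 9.68e-07 by edgeR).

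After LPS, P2ry14 rose in WT MG to 2.90, 2.25 and 2.91 CPM (log2 fold change 3.33, SE 0.62 and adjusted p = 0.00195 by edgeR) and in KO MG to 5.60, 2.84 and 3.65 CPM, a ratio of 126 with a 95% counting interval of 22.3 to 5020 (adjusted p = 2.77e-05 by edgeR). Every library after LPS was above every untreated one. In both MG populations P2ry14 passed the filter on low counts only through libraries after LPS. KO sdCAMs stayed within their untreated range, at 6.91, 6.85 and 5.76 CPM (log2 fold change -0.08, SE 0.51 and adjusted p = 0.928 by edgeR), and the difference between the KO sdCAM and KO MG responses was called (adjusted p = 0.000142 by edgeR). Its fitted size, -6.56 on the log2 scale, rests on the 1 read in untreated KO MG and is not a bound. In WT sdCAMs P2ry14 was at 16.2, 13.99 and 13.2 CPM after LPS, all above the untreated libraries, and was not called by edgeR (log2 fold change 2.04, SE 0.73 and adjusted p = 0.112 by edgeR) but by DESeq2 (adjusted p = 0.0312).

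Reporter MG with PBS held 9.81, 0 and 0 CPM of P2ry14, so that 1 library carried all 118 reads of the group and exceeded every untreated sdCAM library. With LPS they held 5.16, 3.33 and 2.81 CPM, and the difference was not called (log2 fold change 0.20, SE 2.03 and adjusted p = 0.99 by edgeR).

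P2ry14 was also detected in reporter sdCAMs, all from mice given BLZ945. With PBS it was at 35.8, 15.9 and 25.5 CPM in tdT+ and 24.8, 18.5 and 7.00 CPM in tdT- cells. After LPS it was at 10.6, 10.99 and 3.39 CPM in tdT+ cells, below every PBS library, and at 5.14, 9.72 and 9.78 CPM in tdT- cells, within reach of the lowest PBS library. Neither difference was called (log2 fold change -1.62, SE 0.72 and adjusted p = 0.156 by edgeR in tdT+ cells). Monocyte markers (Ly6c2, Ccr2, Plac8 and Chil3) summed to 229.9 to 285.7 CPM in tdT+ and 142.4 to 287.4 CPM in tdT- cells with PBS. After LPS the sum was 9.34 to 79.06 CPM in both. Chil3 was at 0 in each of these groups, and Ly6c2 also in tdT+ cells with PBS. Most of the sum with PBS was Ccr2, whose promoter drives the reporter. Ccr2 was at 288.2, 235.5 and 266.5 plain CPM in tdT+ and 206.6, 146.1 and 154.3 plain CPM in tdT- cells. The part of monocyte RNA in the P2ry14 levels was not tested.

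Of the surface enzymes, Entpd1 was called after LPS in more populations than any other member. It has 2 annotated starts among the RefSeq promoters (GRCm38.p6, 250 bases before to 50 after each start), shown for that reason. Capitals mark GAGGAA, the core that PU.1, a macrophage transcription factor, binds, on either strand. The upstream start holds none of the 3 motifs searched, and the other holds this core 2 times. Of all 32851 promoters, 28.3% hold it at least 1 time.
Entpd1, chr19:40612116-40612415, plus strand: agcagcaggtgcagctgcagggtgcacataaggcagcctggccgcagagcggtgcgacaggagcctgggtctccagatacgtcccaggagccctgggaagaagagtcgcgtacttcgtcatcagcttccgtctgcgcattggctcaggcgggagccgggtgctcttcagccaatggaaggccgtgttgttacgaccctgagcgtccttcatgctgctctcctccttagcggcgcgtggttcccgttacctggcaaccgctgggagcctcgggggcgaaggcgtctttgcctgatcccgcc
Entpd1, chr19:40659520-40659819, plus strand: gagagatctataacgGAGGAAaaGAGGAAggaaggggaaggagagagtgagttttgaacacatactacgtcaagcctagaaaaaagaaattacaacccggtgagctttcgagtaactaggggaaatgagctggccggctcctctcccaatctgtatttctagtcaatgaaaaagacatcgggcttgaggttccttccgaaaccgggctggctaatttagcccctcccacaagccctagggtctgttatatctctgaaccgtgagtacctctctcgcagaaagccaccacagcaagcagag
A match describes the letters in the window and no binding was measured.

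In untreated WT MG, Entpd1 stood at 936, 951 and 969.5 CPM. After CTL and LPS it was at 109, 462 and 246 CPM. No library after LPS reached the untreated ones, and Entpd1 fell 3.47-fold (log2 fold change -1.80, SE 0.37 and adjusted p = 0.00368 by edgeR). KO MG fell from 912, 1161 and 936 to 272, 310.1 and 238 CPM, 3.62-fold (log2 fold change -1.85, SE 0.19 and adjusted p = 6.01e-06 by edgeR). Reporter MG had 760.1, 579.5 and 976 CPM with PBS and 232, 207 and 230.3 CPM with LPS, also without overlap, and just missed the call (log2 fold change -1.82, SE 0.32 and adjusted p = 0.0501 by edgeR). In that comparison DESeq2, the fit without a filter on low counts and the fit without PBS mouse 175 called Entpd1.

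No call separated the Entpd1 levels of sdCAMs and MG at rest. Untreated KO sdCAMs had 551, 592 and 553 CPM, below all MG libraries of the same mice but under the fold limit (log2 fold change -0.83, SE 0.18 and adjusted p = 0.00222 by edgeR). After LPS they had 107, 69.9 and 82.5 CPM and Entpd1 fell 6.55-fold (log2 fold change -2.71, SE 0.18 and adjusted p = 4.1e-07 by edgeR). In WT sdCAMs Entpd1 fell from 329, 448 and 538 to 43.04, 89.7 and 35.01 CPM, 7.19-fold (log2 fold change -2.85, SE 0.51 and adjusted p = 0.0132 by edgeR), a call that was lost without CTL mouse 1 or mouse 6 (adjusted p = 0.0589 and 0.0767).

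Entpd1 also fell in both sdCAM populations of the reporter mice. In tdT+ cells it went from 303, 506 and 397 to 45.6, 142 and 64.4 CPM, 4.76-fold (log2 fold change -2.25, SE 0.46 and adjusted p = 0.00469 by edgeR). The highest value after LPS belonged to mouse 5, whose library carried microglial markers, and without it the log2 fold change was -2.88 (adjusted p = 0.000985). In tdT- cells Entpd1 went from 426, 593 and 490.5 to 69.4, 39.4 and 21.8 CPM, 11.6-fold (log2 fold change -3.53, SE 0.49 and adjusted p = 7.87e-05 by edgeR). The groups did not overlap in either. The sdCAM response did not differ detectably from the MG response (difference of log2 fold changes -0.82, SE 0.26, edgeR adjusted p = 0.0573 in KO and -1.12, SE 0.62, adjusted p = 0.354 in WT mice).

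Nt5e, the enzyme of the next step from AMP to adenosine, was close to the detection limit. It reached 8.97, 0.113 and 6.67 CPM in tdT+ sdCAMs with PBS and 0, 5.83 and 0 CPM in WT sdCAMs after CTL and LPS, the latter from 5 reads in 1 library. In all other groups it was at or below 1.97 CPM. It had no read in untreated WT sdCAMs, tdT+ sdCAMs with LPS and reporter MG with PBS, where a count of 0 allows up to 0.410, 0.234 and 0.0944 CPM over the group by counting error. Of the tdT+ libraries with PBS, that of mouse 175 held almost none. Markers of T and NK cells (Cd3e, Cd3g, Trbc2 and Ncr1) summed to 7.107 to 124.9 CPM in these tdT+ libraries. The sum was 0.1045 to 15.57 CPM in tdT- sdCAMs with PBS. It was 4.001 to 75.52 CPM in tdT- sdCAMs with LPS, where Nt5e was at most 0.729 CPM. The part of T and NK cell RNA in the Nt5e levels was not tested. No comparison of sdCAMs with MG called Nt5e.

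Levels per kilobase of exon allow the members to be set against each other, since longer transcripts collect more reads. Entpd1 led in untreated WT and KO MG, at 171 and 179.7 CPM per kb, which is 44.6 and 42.3% of the sum of the 10 members. P2ry6 followed at 127 and 158 CPM per kb and led in the other 16 groups. After LPS the share of Entpd1 was 18.5% in WT and 14.7% in KO MG. In KO sdCAMs it went from 22.6 to 5.80%, while P2rx4 went from 14.9 to 26.96% and Adora2b from 0.130 to 14.6%, the third rank in that group. In WT sdCAMs after CTL and LPS, P2ry6 alone made up 70.3%.

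**Figure D3:**
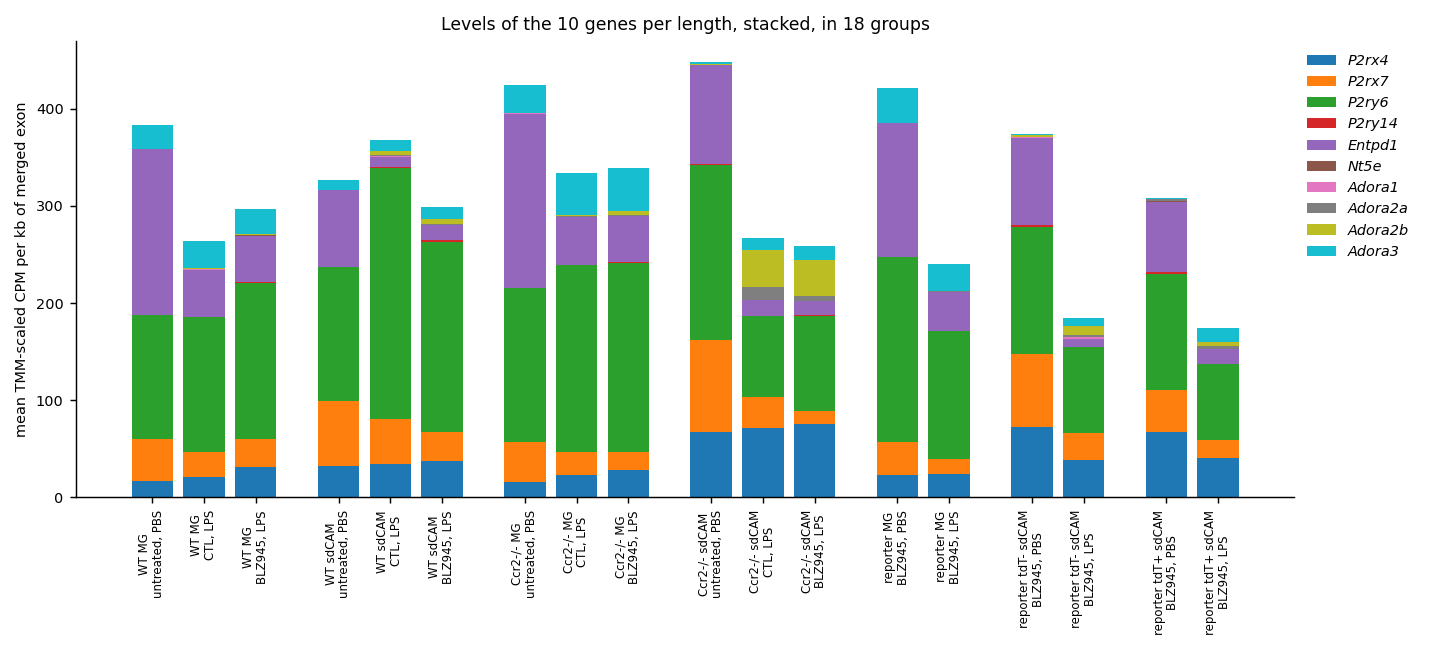
Mean level of each member per kilobase of merged exon (TMM-scaled CPM per kb, vertical axis), stacked over the 10 members for each of the 18 groups. The Entpd1 segment is 170.7 CPM per kb in untreated WT MG and 48.8 CPM per kb after CTL and LPS.

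Of the adenosine receptors, Adora3 was expressed in MG without LPS, at a mean of 91.98 CPM in WT, 110.8 CPM in KO and 131.7 CPM in reporter mice, whereas Adora2a had 1 read in 1 of these 9 libraries and Adora2b none. In reporter sdCAMs with PBS the levels lay closer together, with means of 3.84, 4.74 and 1.32 CPM for Adora3, Adora2a and Adora2b in tdT+ and 2.59, 0.846 and 4.12 CPM in tdT- cells. The promoters of Adora3 and Adora2b are shown because MG at rest expressed Adora3 and not Adora2b, while both rose in KO sdCAMs after LPS. Capitals mark TGANTCA (the AP-1 site, in 7.81% of all promoters) and GAGGAA in Adora3 and GGGCGG (the GC box, in 35.7% of all promoters) in Adora2b, on either strand and without overlap. Adora3 holds 1 AP-1 site and 1 PU.1 core and no GC box, and Adora2b holds 6 GC boxes and neither of the others.
Adora3, chr3:105904171-105904470, plus strand: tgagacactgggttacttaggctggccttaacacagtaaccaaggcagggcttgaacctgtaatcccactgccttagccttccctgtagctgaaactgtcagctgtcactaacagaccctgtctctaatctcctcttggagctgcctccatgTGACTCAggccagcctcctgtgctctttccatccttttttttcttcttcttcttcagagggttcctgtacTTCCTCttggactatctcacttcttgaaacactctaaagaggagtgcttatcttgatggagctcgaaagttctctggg
Adora2b, chr11:62248734-62249033, plus strand: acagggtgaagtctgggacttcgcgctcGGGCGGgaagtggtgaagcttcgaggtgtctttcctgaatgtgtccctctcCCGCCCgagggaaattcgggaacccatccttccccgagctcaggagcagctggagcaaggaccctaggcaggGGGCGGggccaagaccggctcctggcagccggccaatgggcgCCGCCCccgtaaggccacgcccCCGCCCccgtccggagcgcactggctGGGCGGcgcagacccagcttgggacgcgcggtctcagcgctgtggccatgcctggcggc
Among the 8 of 10 members with a RefSeq entry, 4 had an AP-1 match, 4 a PU.1 core and 5 a GC box in at least 1 promoter. Counted by promoter, the unit of the shares above, these were 5, 8 and 5 of 14 entries.

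Adora3, an inhibitory receptor, was at 116, 104 and 113 CPM in untreated KO MG and 3.98, 7.79 and 9.62 CPM in KO sdCAMs, 15.6-fold lower in sdCAMs (log2 fold change -3.97, SE 0.28 and adjusted p = 3.7e-09 by edgeR). In reporter mice with PBS it was at 138, 132 and 125 CPM in MG, 2.27, 2.14 and 7.10 CPM in tdT+ and 2.12, 3.35 and 2.30 CPM in tdT- sdCAMs. The groups lay far apart, 34.7-fold for tdT+ (log2 fold change -5.12, SE 0.55 and adjusted p = 4.38e-06 by edgeR) and 51.2-fold for tdT- cells (log2 fold change -5.68, SE 0.56 and adjusted p = 1.85e-06 by edgeR). Untreated WT MG had 85.96, 95.5 and 94.5 CPM and WT sdCAMs 15.2, 42.6 and 48.97 CPM, 2.58-fold lower (log2 fold change -1.37, SE 0.41 and adjusted p = 0.0303 by edgeR), a call lost in 6 of 13 alternatives. Adora3 in these 3 WT sdCAM libraries followed the order of their microglial markers, which summed to 4030, 4703 and 6752 CPM, and the part of microglial RNA in it was not tested.

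After LPS, Adora3 rose in 3 sdCAM populations. KO sdCAMs went to 41.3, 41.2 and 50.9 CPM, 6.22-fold above the untreated libraries (log2 fold change 2.64, SE 0.35 and adjusted p = 0.000114 by edgeR). The tdT+ sdCAMs went to 33.8, 70.7 and 56.1 CPM, 14.00-fold (log2 fold change 3.80, SE 0.65 and adjusted p = 0.00139 by edgeR), and tdT- sdCAMs to 27.6, 38.9 and 23.6 CPM, 11.5-fold (log2 fold change 3.52, SE 0.64 and adjusted p = 0.000778 by edgeR). No library after LPS overlapped those without. The tdT+ library of mouse 5 with its microglial markers was the highest, and without it the log2 fold change was 3.53 (adjusted p = 0.00524). In KO sdCAMs the microglial marker sum was 7.29 to 11% of that of MG from the same animals when untreated and 6.54 to 10.9% after LPS, and the part of microglial RNA in the Adora3 levels was not tested.

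Adora3 was not called in MG after LPS. KO MG had 173, 163 and 154 CPM, above every untreated library and under the fold limit (log2 fold change 0.58, SE 0.16 and adjusted p = 0.0101 by edgeR), and WT MG 109.5, 90.7 and 103 CPM, overlapping the untreated libraries. The response of KO sdCAMs exceeded that of KO MG in the test of the difference (log2 2.10, SE 0.36, edgeR adjusted p = 0.000774). WT sdCAMs had 60.8, 18.6 and 45.5 CPM after LPS, within the untreated range (log2 fold change 0.39, SE 0.57 and adjusted p = 0.715 by edgeR), and without TMM scaling the sign of this difference turned. In the reference annotation 20.9% of the exon bases of Adora3 overlap Tmigd3 on the same strand, so that reads there cannot be assigned to 1 of the 2 genes.

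Adora2a, a stimulatory receptor known to be induced in microglia by endotoxin, had no read in untreated WT MG, untreated KO MG and untreated WT sdCAMs. After LPS it was at 3.23, 0.449 and 3.94 CPM in WT MG, at least 25.7-fold higher (adjusted p = 0.00349 by edgeR), and at 2.76, 0.688 and 2.17 CPM in KO MG, at least 19.3-fold higher (adjusted p = 0.00166 by edgeR). For such bounds, 3 reads over the group stood in for a group without a read. In WT and KO MG, Adora2a passed the filter on low counts only through libraries after LPS. It had too few reads for a test in the compared groups alone. In KO sdCAMs Adora2a was at 1.25, 0 and 0 CPM untreated and 26.99, 56.2 and 34.3 CPM after LPS, its highest level in the series (log2 fold change 6.45, SE 0.92 and adjusted p = 0.000192 by edgeR). Every library after LPS exceeded the untreated ones in these 3 populations.

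Reporter MG had 0, 0.103 and 0 CPM of Adora2a with PBS and 6.40, 2.06 and 1.97 CPM with LPS, without overlap but not called (log2 fold change 6.23, SE 1.67 and adjusted p = 0.124 by edgeR). In tdT+ sdCAMs the levels were 6.80, 0 and 7.41 CPM with PBS and 2.44, 4.65 and 17.9 CPM with LPS, and these groups overlapped. In tdT- sdCAMs they were 0.961, 1.58 and 0 CPM and 7.39, 4.13 and 7.56 CPM, without overlap and not called (log2 fold change 2.87, SE 1.66 and adjusted p = 0.215 by edgeR). WT sdCAMs after LPS held 1.13, 5.83 and 0.307 CPM, too few reads in that population for a test.

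Adora2b, the stimulatory receptor of low affinity, followed a like course. It had no read in untreated WT MG, KO MG and WT sdCAMs and in reporter MG with PBS. KO sdCAMs went from 0, 1.51 and 1.70 to 70.1, 56.03 and 89.2 CPM (log2 fold change 6.07, SE 0.63 and adjusted p = 1.55e-05 by edgeR), its highest mean in the series. WT MG went to 2.98, 0.269 and 0.942 CPM, at least 14.2-fold higher (adjusted p = 0.00914 by edgeR), and KO MG to 3.07, 0.430 and 1.56 CPM, at least 17.4-fold higher (adjusted p = 0.0113 by edgeR). In WT sdCAMs it was at 16.2, 3.50 and 3.69 CPM, at least 19.1-fold higher (adjusted p = 0.035 by edgeR), and this call was lost when any 1 of the 6 libraries was left out. In WT MG, KO MG and WT sdCAMs, Adora2b too passed the filter on low counts only through libraries after LPS. It had too few reads there for a test in the compared groups alone.

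Reporter cells differed in that Adora2b was already detected in sdCAMs with PBS, at 0, 3.95 and 0 CPM in tdT+ and 2.02, 5.52 and 4.81 CPM in tdT- cells, against no read in MG. The tdT- level was at least 43.6-fold higher than that of MG (adjusted p = 0.0397 by edgeR), a call lost in 7 of 12 alternatives. After LPS tdT+ sdCAMs held 4.89, 2.11 and 13.9 CPM and tdT- sdCAMs 8.03, 24.8 and 19.1 CPM, and neither difference was called. Reporter MG after LPS held 0, 0.0979 and 0.375 CPM. In KO sdCAMs against KO MG at rest, edgeR gave an adjusted p of 0.0606 for Adora2b without and 0.0217 with the mouse as a block, since the same mice gave both cell types.

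The summed neutrophil markers S100a8, S100a9, Ly6g and Retnlg were also higher in sdCAMs after LPS. Their sum was 60.88 to 93.87 CPM in KO sdCAMs after LPS against 0.905 to 2.41 CPM untreated, 358.9 to 3259 CPM in WT sdCAMs after CTL and LPS and 570.9 to 2233 CPM in tdT- sdCAMs with LPS. The defining markers Ly6g and Retnlg were at 0 in all of these. In MG after CTL and LPS the sum was 0.629 to 9.29 CPM. The part of neutrophil RNA in the Adora2a and Adora2b levels was not tested.

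Adora1, the other inhibitory receptor, was low throughout and not called in any comparison. Its highest levels were 24.1, 3.65 and 10.2 CPM in tdT- sdCAMs with LPS and 9.73, 4.87 and 2.62 CPM in untreated WT sdCAMs, against 3.46, 0.493 and 2.72 CPM in tdT- sdCAMs with PBS and 0.531, 0.204 and 0.988 CPM in untreated WT MG. In neither pair did the libraries overlap. The WT difference had an edgeR adjusted p of 0.0949 and was called by DESeq2 (adjusted p = 0.0121). In the annotation 20.1% of the exon bases of Adora1 overlap Mybph on the opposite strand, which cannot be told apart without strand information.

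Between cell types at rest, 1 of 10 members was called higher in WT sdCAMs than in WT MG (P2ry14) and 1 lower (Adora3), beside 11.9% and 5.2% of all genes. In KO mice 3 of 9 were higher (P2rx4, P2rx7 and P2ry14) and Adora3 lower, beside 8.53% and 6.43%. The tdT+ sdCAMs had 1 of 10 higher (P2rx4) and 1 lower (Adora3), beside 5.35% and 3.18%, and tdT- sdCAMs had 2 higher (P2rx4 and Adora2b) and 1 lower (Adora3), beside 4.61% and 1.77%. Adora3 was thus the member called in the same direction in all 4 comparisons, and the tdT+ and tdT- comparisons share their MG libraries.

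The LPS response differed between KO sdCAMs and KO MG for 3 of 9 members, higher for Adora3 and lower for P2ry6 and P2ry14, beside 2.88% and 4% of all genes. In WT mice edgeR called none of 10, DESeq2 none, and none had an unadjusted p under 0.05, beside 1.32% of all genes. Between tdT+ and tdT- sdCAMs none of 9 members was called with PBS or with LPS by edgeR or DESeq2, beside 0.0236% and 10.6% of all genes, and none had an unadjusted p under 0.05.

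Repopulation was examined after LPS, as BLZ945 with LPS against CTL with LPS. No member was called by edgeR in any of the 4 populations. Of all genes, 0.0763% were called in WT MG, 0.0173% in KO MG, and 0% in WT sdCAMs and in KO sdCAMs. An unadjusted p under 0.05 was reached by 2 of 9 members in WT MG, 1 of 9 in KO MG, 0 of 7 in WT sdCAMs and 1 of 9 in KO sdCAMs, and DESeq2 called 1, 0, 0 and 1. In WT sdCAMs, where mouse 12 stood apart, TMM scaling shifted the differences against plain CPM by a log2 of -1.07, which turned the signs of P2rx7 and P2ry6, and leaving out mouse 12 also gave 0 calls. These comparisons share the CTL with LPS libraries with the LPS comparisons above.

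P2ry14 in WT MG was at 2.90, 2.25 and 2.91 CPM after CTL and LPS and 18.2, 16.8 and 20.6 CPM after BLZ945 and LPS. All 3 repopulated libraries lay above the others (log2 fold change 2.79, SE 0.45 and adjusted p = 0.057 by edgeR), and 5 of 11 alternatives called the difference, with adjusted p between 2.38e-10 and 0.394. KO MG showed 5.60, 2.84 and 3.65 CPM and 8.20, 11.5 and 14.5 CPM, likewise without overlap and without a call. In KO sdCAMs the levels were 6.91, 6.85 and 5.76 and 18.5, 8.42 and 7.25 CPM, also apart, whereas those of WT sdCAMs, 16.2, 13.99 and 13.2 and 41.8, 15.2 and 14.8 CPM, overlapped.

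P2rx7 in KO sdCAMs was at 160.1, 213 and 183 CPM after CTL and LPS and 52.1, 72.5 and 121 CPM after BLZ945 and LPS, its lowest level in the series. The libraries did not overlap, and edgeR gave an adjusted p of 0.222 for a log2 fold change of -1.20 (SE 0.25). DESeq2 called this difference (adjusted p = 0.00179), as did edgeR without BLZ945 mouse B4f (adjusted p = 0.0165). Entpd1 levels with and without depletion overlapped, at 72.5, 85.4 and 79.6 CPM in repopulated KO sdCAMs and 309, 229 and 257 CPM in repopulated WT MG. Adora2a stood at 8.72, 23.3 and 13.5 CPM in repopulated KO sdCAMs, below all 3 libraries of the CTL group, and Adora2b at 98.4, 50.1 and 57.5 CPM, overlapping that group.

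**Figure D4:**
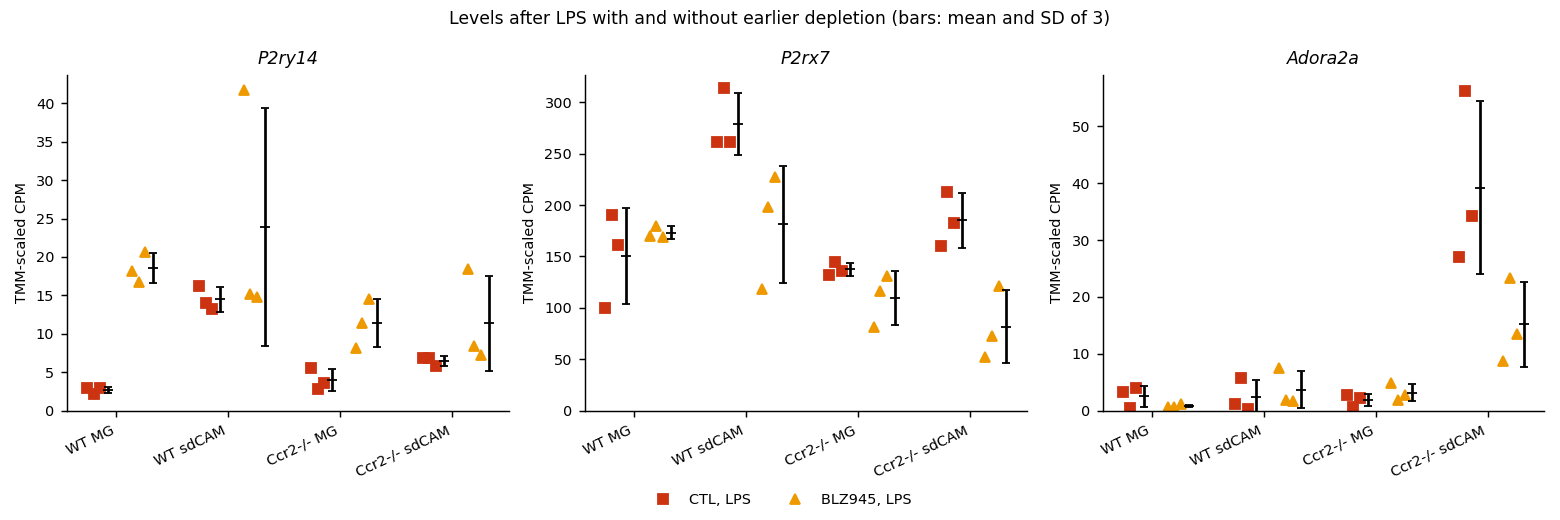
Levels of P2ry14, P2rx7 and Adora2a (TMM-scaled CPM) in MG and sdCAMs of WT and Ccr2 KO mice after CTL and LPS or BLZ945 and LPS. Each point is 1 mouse, and black marks and bars are the mean and SD of 3. P2ry14 in WT MG stood at 2.25 to 2.91 CPM after CTL and LPS and at 16.8 to 20.6 CPM after BLZ945 and LPS.

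Of 60 other genes of nucleotide release, breakdown, transport and signalling, 32 to 39 had enough reads for a test in a given comparison. After LPS 4 were higher and 7 lower of 34 in WT MG, beside 9.08% and 7.65% of all genes, and 6 and 6 of 34 in KO MG, beside 10.5% and 8.89%. The counts were 3 and 4 of 33 in WT sdCAMs, beside 3.7% and 2.62%, and 9 and 8 of 35 in KO sdCAMs, beside 10.9% and 10.6%. Besides the decline of Entpd1 in MG, P2ry12, the ADP receptor of resting microglia, fell from 8212 to 873 CPM on average in WT MG (log2 fold change -3.22, edgeR adjusted p = 1.19e-05). P2ry2, a receptor for ATP and UTP, rose from 1.58 to 30.6 CPM (log2 fold change 4.29, adjusted p = 3.57e-05). Gnas, which encodes the G protein that Adora2a and Adora2b use, fell from 376 to 171 CPM (log2 fold change -1.13, adjusted p = 0.000143).

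In KO sdCAMs, where Adora2a, Adora2b and Adora3 rose, Cd38, a surface enzyme that consumes NAD, rose from 691 to 5665 CPM (log2 fold change 3.04, edgeR adjusted p = 1.89e-07). The nucleoside transporter Slc29a1 fell (log2 fold change -1.41) and the concentrative transporter Slc28a2 rose (log2 fold change 2.22). In tdT+ sdCAMs 4 of 38 were higher and 4 lower after LPS, beside 7.54% and 5.82% of all genes, and in tdT- sdCAMs 2 and 7 of 38, beside 14.5% and 12%. In reporter MG 1 of 32 was called, and it was lower, beside 1.08% called in either direction. Slc29a1 fell in both reporter sdCAM populations (log2 fold change -2.44 and -2.51), and Lrrc8a, a subunit of volume-regulated anion channels, rose (log2 fold change 3.83 and 4.25). No gene of this list was called after repopulation, and none between tdT+ and tdT- sdCAMs with PBS, against 3 higher and 1 lower of 38 with LPS, beside 10.6% of all genes in either direction. The 3 higher were Slc29a3, P2ry13 and P2ry12, each lower in sdCAMs than in MG at rest in WT and KO mice. P2ry12 was at 840 CPM in tdT+ cells of mouse 5, whose library carried microglial markers, and at 103.9 and 98.3 CPM in mice 1 and 7. The 2 columns with conflicting index numbers enter this comparison, and the part of microglial RNA in it was not tested.

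Over the 18 group means, the genes with levels most like Entpd1 were Arsb, Otud1 and Il16, with Pearson's r of 0.991, 0.979 and 0.977. P2rx4 was followed most closely by Sqle (0.961), Tmem106a (0.957) and Axl (0.948). For Adora3 these included Slc16a6 (0.963) and Il1a (0.948), for Adora2a Actr3-ps (0.939), Cdc42ep2 (0.938) and Ptgs2 (0.923), and for Adora2b Mcoln2 (0.946), Gsr (0.939) and Plin2 (0.937). P2rx7, P2ry6, P2ry14, Nt5e and Adora1 had lower values of their closest genes, 0.881 with Neo1, 0.86 with Cst3, 0.846 with Sp100, 0.867 with Hsh2d and 0.873 with Cbln3. Among the members, Adora2a and Adora2b were most alike (0.886) and Adora3 and P2rx4 most unlike (-0.763). The 18 groups share mice, cell types and treatment, so these values describe the series only.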

How the data were processed

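Sorted cells of single mouse brains gave SMARTer Ultra Low and Nextera XT libraries, sequenced as single reads. Per the submitters' processing notes, the authors used bcl2fastq 2.20, STAR 2.7.11a, featureCounts 2.0.8 and DESeq2 1.46.0. The deposited tables hold raw counts per gene symbol, without molecular identifiers, so intervals and floors cover counting error only. The strand setting is not given in the sources used here.

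Counts were tested per population in edgeR 4.0.16 under R 4.3.3 (two-sided quasi-likelihood test, filterByExpr, TMM, 1 coefficient per group). The tdT+ and tdT- sdCAMs shared 1 fit, as did MG and sdCAMs of a genotype for comparisons of cell types. Libraries of the same mouse entered such joint fits as separate libraries, with the mouse as a block only in alternatives. p-values were Benjamini-Hochberg adjusted over the 10504 to 13309 genes tested. They rest on a spread estimated over all libraries of a fit, with 3 mice a group, which includes groups outside a comparison. A gene was called where the adjusted p was below 0.05 and the log2 fold change beyond 1 in either direction, the limits of the study. CPM were TMM-scaled over 54 libraries. The SE of a log2 fold change was derived from the test, as its size over the square root of the F statistic.

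The members, the 60 other pathway genes and the marker lists were chosen with earlier results of these data known. All members were named. Some genes of these lists and of the similar genes are not reported here. Pathway genes were named among the 3 smallest p a direction, with at least 10 CPM in a group and without overlap, and similar genes by Pearson's r among 13856 genes that are not predicted. No 2 libraries of a group held identical counts, and the lowest chi-square per degree of freedom was 7.756. Mouse numbers pair the cell types, since the same mice gave both (r of same-mouse deviations from -0.07 to 0.25).

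Alternatives were DESeq2 1.42.0, its size factors, other low-count filters, no fold limit, the compared groups fitted alone, the mouse as a block, each library left out, the 2 conflicting reporter columns exchanged or left out and the IEG_correction mark of 6 WT sdCAM libraries as a covariate. This mark lay on every library after CTL and LPS, on untreated mice 9 and 14, and on mouse 12 alone of the BLZ945 and LPS group. Mark and repopulation in WT sdCAMs therefore cannot be fully told apart. The scripts were tested on simulated data.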

Additional observations from a re-analysis of the deposited data

Results flagged for a closer look

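3 of 9 members differed between KO sdCAMs and KO MG in their response to LPS. The test was of that difference in a joint fit of the 18 KO libraries (edgeR). It called 2.88% of all genes higher and 4% lower. For Adora3 the sdCAM response exceeded the MG response by a log2 fold change of 2.10 (SE 0.36 and adjusted p = 0.000774 by edgeR), with 3 of 3 sdCAM libraries after LPS above all 3 untreated ones. For P2ry6 the difference was -1.39 (SE 0.19 and adjusted p = 6.92e-05 by edgeR), with lower levels after LPS in sdCAMs and higher ones in MG. For P2ry14 it was -6.56 (SE 0.94 and adjusted p = 0.000142 by edgeR). This fitted size rests on 1 read in untreated KO MG and is not a bound. In WT mice the same test called none of 10 members, and none had an unadjusted p under 0.05 by edgeR.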

How the results depend on the processing

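Counts of called members moved by more than 1.5 times under these settings. With the compared groups fitted alone, 2 members were called after LPS in WT MG, 1 in WT sdCAMs and 2 in KO MG, against 4, 2 and 4, and 1 (P2ry14) after repopulation in WT MG, against 0. The LPS calls lost were those of Adora2b and, in MG, Adora2a, which had too few reads for a test in these fits. DESeq2 called 1 member after repopulation in WT MG (P2ry14) and 1 in KO sdCAMs (P2rx7), 3 after LPS in reporter MG, and 4 between sdCAMs and MG in WT and 4 in tdT+ cells, against 0, 0, 0, 2 and 2. Without a filter on low counts there was 1 call after repopulation in WT MG, 1 in KO sdCAMs and 1 after LPS in reporter MG, and 4 between tdT+ sdCAMs and MG. The study's low-count rule gave 1 call after repopulation in WT MG. Without the fold limit 7 members passed after LPS in KO MG, and with the IEG_correction mark as a covariate 1 passed between WT sdCAMs and MG. With 1 library left out, calls ranged from 0 to 1 after repopulation in WT MG and KO sdCAMs and after LPS in WT sdCAMs and reporter MG, and from 1 to 3 between WT sdCAMs and MG. With the mouse as a replicate block, 5 instead of 4 members were called between KO sdCAMs and MG, Adora2b being added (adjusted p = 0.0217), and no other count of calls moved by over 1.5 times.

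No called log2 fold change changed sign. Among those not called, the sign turned for Adora2a after LPS in tdT+ cells without the 2 conflicting columns (-0.41), for P2ry6 between WT sdCAMs and MG with the IEG_correction mark (-0.82), for the WT cell-type difference in the LPS response of Adora2a with DESeq2 size factors (0.0865) and with the mark (0.30), and for the KO difference of Adora1 with the replicate block (0.31). Leaving out 1 library gave after LPS P2rx4 from -0.0314 to 0.45 in WT sdCAMs and from -0.12 to 0.27 in reporter MG, Adora1 from -0.25 to 0.945 in KO MG, from -0.17 to 0.92 in KO sdCAMs and from -2.83 to 6.05 in tdT+ cells, P2ry14 from -0.21 to 0.0143 in KO sdCAMs and from -0.39 to 8.23 in reporter MG, and Adora2a from -0.41 to 1.29 in tdT+ cells. Between sdCAMs and MG it gave P2ry6 from -0.20 to 0.28 in WT, Adora1 from -0.42 to 1.01 in KO and from -1.60 to 2.95 for tdT+ cells. For the difference in LPS response it gave Adora2a from -1.78 to 0.36 and Adora3 from -0.18 to 0.51 in WT, and Adora1 from -0.75 to 0.65 and Adora2a from -1.36 to 4.34 in KO mice. Of 601 alternative values over 50 further pairs of member and comparison, repopulation and tdT+ against tdT-, 70 had the opposite sign, between -1.03 and 1.03. Without TMM scaling 0 of 32 called directions and 11 of 118 others turned, and 50 of 180 group levels moved by more than 1 SD. The causes were not tested. TMM scaling shifted LPS differences against plain CPM by a log2 of 1.34 in WT sdCAMs and 0.816 in tdT- cells, and repopulation differences in WT sdCAMs by -1.07. Depth limits low levels at rest: Adora2a and Adora2b had no read in untreated WT MG, WT sdCAMs and KO MG, and P2ry14 had 8 reads in untreated WT MG and 1 in KO MG.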
